A study of Homo sapiens with 20 samples.

Results

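Frame-preserving alternative exons are cassette exons, exons that a transcript may either include or skip, whose length is a multiple of 3 bases, so that the reading frame downstream is the same with and without them. They were chosen in each of 3 tables of skipped-exon events on their own, by a pooled control inclusion of 0.1 to 0.9, a length over 30 bases and divisible by 3, and 20 or more reads across its junctions on average over the libraries. For FUBP1 depletion the rule kept 1147 of 19792 events (1088 exons of 931 genes), for U3 depletion 2026 of 32990 events (1824 exons of 1483 genes) and for FBL depletion 537 of 7065 events (525 exons of 457 genes). The tables are named here by the depleted gene. The inclusion level, the share of transcripts of an event that hold the exon, was computed from the reads across the junctions that join or skip the exon, each divided by the effective length of its form. Because control levels, length and reads chose the exons, these are given below as description only.

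All libraries came from HepG2, a human liver cancer cell line, and no comparison shared its control libraries with another. FUBP1, a splicing regulator that binds U-rich RNA, was depleted for 48 hours with 1 siRNA (siFUBP1, 3 libraries) against the siRNA siCtrl2 (3 libraries). The small nucleolar RNA U3 was depleted for 72 hours with 1 antisense oligonucleotide (U3 ASO, 3 libraries) against an oligonucleotide to GFP (GFP ASO, 3 libraries). Fibrillarin (FBL), the enzyme that 2′-O-methylates RNA with box C/D small nucleolar RNAs, was depleted for 48 hours with 1 siRNA (siFBL) against siCtrl. Its 2 siFBL and 2 siCtrl libraries were the input samples of an RNA immunoprecipitation. The study asked whether FUBP1, U3 and FBL, which bear on this RNA modification, change splicing.

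The spliceosome recognises a cassette exon through a pyrimidine-rich stretch and an AG at the end of the intron before it and, in most introns, a GT at the start of the intron after it. Skipping an exon of 3n bases removes whole codons and can take out a protein segment without shifting the frame, whereas an exon of any other length changes every codon after it. Cassette exons that carry a stop codon in frame can instead send the transcript to nonsense-mediated decay, whatever their length.

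Of these exons, 10 events in the siFUBP1 comparison and 6 in the U3 ASO comparison passed the test at an adjusted p under 0.1 (a quasi-binomial F test of the junction reads, with Benjamini-Hochberg adjustment over all tested events of the table). The sequences of most of them are printed here because the changes were read from their splice junctions. Each runs 5′ to 3′ on the transcribed strand of hg38, with the last 20 bases of the intron before it and the first 6 bases of the intron after it in lower case and the exon in capitals. Coordinates are those of the exon. The exons whose inclusion fell with siFUBP1 were those of CTTN at chr11:70421470-70421580 on the plus strand, ZNF207 at chr17:32366665-32366757 on the plus strand, TRIP12 at chr2:229860406-229860531 on the minus strand, CMC1 at chr3:28263291-28263380 on the plus strand, MFF at chr2:227347226-227347384 on the plus strand and HNRNPA2B1 at chr7:26197831-26197866 on the minus strand.
CTTN, 111 bases: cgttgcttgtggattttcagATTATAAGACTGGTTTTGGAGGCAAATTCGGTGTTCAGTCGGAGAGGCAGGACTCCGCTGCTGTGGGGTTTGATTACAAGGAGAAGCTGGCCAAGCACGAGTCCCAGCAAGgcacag
ZNF207, 93 bases: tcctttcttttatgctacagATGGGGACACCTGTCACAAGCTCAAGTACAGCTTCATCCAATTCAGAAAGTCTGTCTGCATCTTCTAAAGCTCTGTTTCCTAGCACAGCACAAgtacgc
TRIP12, 126 bases: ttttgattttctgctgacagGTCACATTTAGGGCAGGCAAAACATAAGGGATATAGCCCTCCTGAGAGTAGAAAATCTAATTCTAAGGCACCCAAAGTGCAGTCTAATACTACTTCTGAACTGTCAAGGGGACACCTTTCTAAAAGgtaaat
CMC1, 90 bases: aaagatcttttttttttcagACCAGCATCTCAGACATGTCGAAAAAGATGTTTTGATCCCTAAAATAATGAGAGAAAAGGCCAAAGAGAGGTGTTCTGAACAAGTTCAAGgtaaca
MFF, 159 bases: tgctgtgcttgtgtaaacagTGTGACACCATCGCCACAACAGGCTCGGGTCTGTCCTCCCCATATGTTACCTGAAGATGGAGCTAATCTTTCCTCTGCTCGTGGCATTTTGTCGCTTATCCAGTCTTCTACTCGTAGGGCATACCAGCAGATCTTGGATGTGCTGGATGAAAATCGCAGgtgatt
HNRNPA2B1, 36 bases: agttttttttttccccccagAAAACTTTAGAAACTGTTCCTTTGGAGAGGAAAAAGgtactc

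The exons whose inclusion rose with siFUBP1 were the EDB exon of FN1 at chr2:215392931-215393203 on the minus strand, the exon of ASGR1 at chr17:7177210-7177326 on the minus strand and a pair of overlapping exons of CNN2 that end at the same base, of which the shorter, at chr19:1036130-1036246 on the plus strand, is printed. The longer one, at chr19:1036067-1036246 on the plus strand, holds the shorter one whole and starts upstream of it.
FN1 EDB, 273 bases: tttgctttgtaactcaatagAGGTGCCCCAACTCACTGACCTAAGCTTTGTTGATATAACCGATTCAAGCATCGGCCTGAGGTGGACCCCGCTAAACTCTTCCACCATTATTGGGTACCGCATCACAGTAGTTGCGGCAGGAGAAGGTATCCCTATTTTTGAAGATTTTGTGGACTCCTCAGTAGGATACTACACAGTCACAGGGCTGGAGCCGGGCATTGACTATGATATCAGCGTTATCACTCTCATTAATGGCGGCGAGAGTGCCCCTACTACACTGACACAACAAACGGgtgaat
ASGR1, 117 bases: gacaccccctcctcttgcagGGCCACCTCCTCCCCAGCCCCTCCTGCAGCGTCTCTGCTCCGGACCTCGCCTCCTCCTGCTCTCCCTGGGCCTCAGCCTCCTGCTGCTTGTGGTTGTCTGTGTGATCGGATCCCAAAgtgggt
CNN2, 117 bases: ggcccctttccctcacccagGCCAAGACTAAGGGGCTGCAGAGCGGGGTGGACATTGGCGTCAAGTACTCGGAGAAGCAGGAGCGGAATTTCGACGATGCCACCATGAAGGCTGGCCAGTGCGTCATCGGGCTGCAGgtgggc

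In the U3 ASO comparison the exons that rose were the EDA exon of FN1 at chr2:215380811-215381080 on the minus strand, SNHG29 at chr17:16439581-16439703 on the plus strand, SH3D19 at chr4:151144220-151144288 on the minus strand and SPTAN1 at chr9:128592983-128593042 on the plus strand, and those that fell were RBM39 at chr20:35734186-35734257 on the minus strand and SREBF1 at chr17:17823518-17823607 on the minus strand. Of RBM39, the exon is shown only from its first base to its first stop codon in the frame of the exon before it, with that stop in capitals and the rest in lower case.
FN1 EDA, 270 bases: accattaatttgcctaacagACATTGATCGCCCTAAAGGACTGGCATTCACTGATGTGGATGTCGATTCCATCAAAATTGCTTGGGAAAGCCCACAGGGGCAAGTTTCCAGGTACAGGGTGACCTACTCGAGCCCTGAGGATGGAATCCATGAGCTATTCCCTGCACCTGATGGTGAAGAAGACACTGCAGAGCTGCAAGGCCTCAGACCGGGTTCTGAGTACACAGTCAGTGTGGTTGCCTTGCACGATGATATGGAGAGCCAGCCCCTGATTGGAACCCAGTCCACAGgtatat
SNHG29, 123 bases: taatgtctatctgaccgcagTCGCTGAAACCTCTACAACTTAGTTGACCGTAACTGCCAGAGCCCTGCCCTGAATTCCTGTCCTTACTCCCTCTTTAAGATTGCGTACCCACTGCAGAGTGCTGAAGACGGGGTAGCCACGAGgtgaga
SH3D19, 69 bases: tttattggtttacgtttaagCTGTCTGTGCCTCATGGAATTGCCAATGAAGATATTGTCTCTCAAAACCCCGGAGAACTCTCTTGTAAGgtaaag
SPTAN1, 60 bases: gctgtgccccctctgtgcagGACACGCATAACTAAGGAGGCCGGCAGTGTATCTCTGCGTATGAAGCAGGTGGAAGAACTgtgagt
RBM39, first 43 of 72 bases: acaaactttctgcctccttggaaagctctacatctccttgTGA

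The intron before each of the 6 exons that fell with siFUBP1 held 44 to 50% T in its last 50 bases, against a median of 38% over the frame-preserving exons of that table. The 4 events that rose held 12 to 42%. A run of 5 T (TTTTT, on the transcribed strand) stood in these 50 bases before CMC1, MFF and HNRNPA2B1, but not before CTTN, ZNF207 or TRIP12. The intron after the CTTN exon began with GC and not GT.

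Junction reads at all events summed to 2693397 to 4474350 per library for FUBP1, 11249641 to 13321799 for U3 and 910779 to 1142189 for FBL. The median frame-preserving event had 47.67, 74.17 and 42.75 junction reads per library. Reads at events of FUBP1 itself, the targeted gene, were 45.2, 56.1 and 50.3 per 1000000 junction reads in the siCtrl2 libraries and 8.42, 10.1 and 4.08 in the siFUBP1 libraries. They were 56.9 to 64 on the same scale with the GFP ASO and 38.7 to 43.4 with the U3 ASO. Reads at events of FBL were not counted, so its own depletion was not checked here. The hepatocyte receptor subunit ASGR1, a marker of the labelled cell type, had 1085 junction reads per library at its frame-preserving exon in the FUBP1 table. In bulk RNA, a large change in few cells and a small change in many cannot be told apart. Nothing in the file columns ties a list position to a replicate number, and p-values measure only the spread between these libraries, which the study's methods describe as biological replicates.

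Depletion of FUBP1 was followed by lower inclusion of 6 frame-preserving exons and higher inclusion of 4, out of 1147. Those that fell by most lay in CTTN, TRIP12 and CMC1, and those that rose lay in ASGR1, CNN2 and FN1. Among all 16213 tested events, 0.154% were called lower and 0.0432% higher (25 and 7 events), and among the 1161 frame-shifting events chosen by the same limits 4 were lower and 2 higher. The limits on level and reads pick events in which a change is easier to detect, so the share among frame-preserving exons is not read against the share among all.

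CTTN encodes cortactin, which binds branched actin filaments, and its exon of 111 bases codes for 37 codons, the length of the tandem repeats through which the protein binds actin. Its inclusion was 0.974, 0.83 and 0.885 in the siCtrl2 libraries and 0.553, 0.523 and 0.573 in the siFUBP1 libraries. Every siFUBP1 library lay below every siCtrl2 library, the means were 0.896 ± 0.0729 and 0.549 ± 0.0251 (SD, n = 3), and the adjusted p of the quasi-binomial F test was 1.67e-06.

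TRIP12 encodes a ubiquitin ligase. Its exon of 126 bases was included at 0.488, 0.612 and 0.552 with siCtrl2 and at 0.251, 0.259 and 0.268 with siFUBP1, a fall of the mean by 0.291 with groups that did not overlap (adjusted p = 0.0141, quasi-binomial F test). The exon of 90 bases in CMC1, whose product takes part in the assembly of mitochondrial cytochrome c oxidase, went from 0.839, 0.922 and 0.829 to 0.551, 0.565 and 0.646 (adjusted p = 0.0308, quasi-binomial F test). Both exons were included in most transcripts of the control cells by mean, and the depleted libraries of each were below all of its control libraries, at means of 0.259 ± 0.00878 and 0.587 ± 0.0512 (SD, n = 3).

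The other 3 exons that fell were minor forms in the control. The exon of 93 bases in ZNF207, a zinc finger protein of the kinetochore and spindle, was included at 0.128, 0.172 and 0.153 with siCtrl2 and 0.0406, 0.0495 and 0.0741 with siFUBP1 (adjusted p = 0.000552, quasi-binomial F test). MFF is the mitochondrial fission factor, which recruits the fission GTPase to the outer membrane, and its exon of 159 bases went from 0.13, 0.269 and 0.243 to 0.0662, 0.0349 and 0.049 (adjusted p = 0.0529, quasi-binomial F test). In both, the control libraries were all above the depleted ones.

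HNRNPA2B1 encodes the RNA-binding proteins hnRNP A2 and B1, which differ by the 12 codons of its exon of 36 bases. B1-type inclusion was 0.194, 0.198 and 0.18 with siCtrl2 and 0.158, 0.152 and 0.133 with siFUBP1, at 3796 junction reads per library. The difference was small, -0.0426, with no overlap, and its adjusted p of 0.0918 by the quasi-binomial F test was just inside the threshold. Without 1 of the libraries siCtrl2 replicate 1 or 2, or siFUBP1 replicate 2 or 3 (numbered by list position), the HNRNPA2B1 exon was no longer called.

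Fibronectin, encoded by FN1, is a matrix glycoprotein whose EDA and EDB exons each add 1 whole type III domain, and plasma fibronectin from the liver lacks both. EDB, of 273 bases, was included at 0.112, 0.124 and 0.0976 with siCtrl2 and 0.173, 0.174 and 0.184 with siFUBP1, a rise of 0.0659 on 4524 junction reads per library (adjusted p = 3e-10, quasi-binomial F test). EDA, of 270 bases, lay at 0.869 ± 0.0132 with siCtrl2 and 0.865 ± 0.00978 with siFUBP1 (SD, n = 3), and the groups overlapped. The 2 domains of the same transcript thus did not move alike in these libraries, although the difference between their changes was not tested.

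The exon of 117 bases in ASGR1, the major subunit of the asialoglycoprotein receptor that clears glycoproteins from blood, rose from 0.867, 0.842 and 0.874 to 0.994, 0.965 and 0.982 (adjusted p = 4.39e-06, quasi-binomial F test). CNN2 encodes calponin 2, an actin-binding protein. Its exon of 117 bases rose from 0.938, 0.858 and 0.81 to 0.998, 0.988 and 0.985 (adjusted p = 4.26e-05, quasi-binomial F test), and the overlapping exon of 180 bases rose from 0.791 ± 0.104 to 0.982 ± 0.0127 (SD, n = 3, adjusted p = 9.82e-05, same test). Both CNN2 events were read against the same 177 skipping reads, so they count as 1 observation of skipping. In each of these exons every siFUBP1 library lay above every siCtrl2 library, at an inclusion of 0.965 or more. These events were members in the FUBP1 table only, through their siCtrl2 levels. With the GFP ASO and siCtrl their mean inclusion was 0.922 and 0.972 (ASGR1), 0.977 and 0.949 (CNN2, 117 bases), and 0.958 and 0.912 (CNN2, 180 bases). Whether the lower siCtrl2 levels had a part in the rises was not tested.

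**Figure D1:**
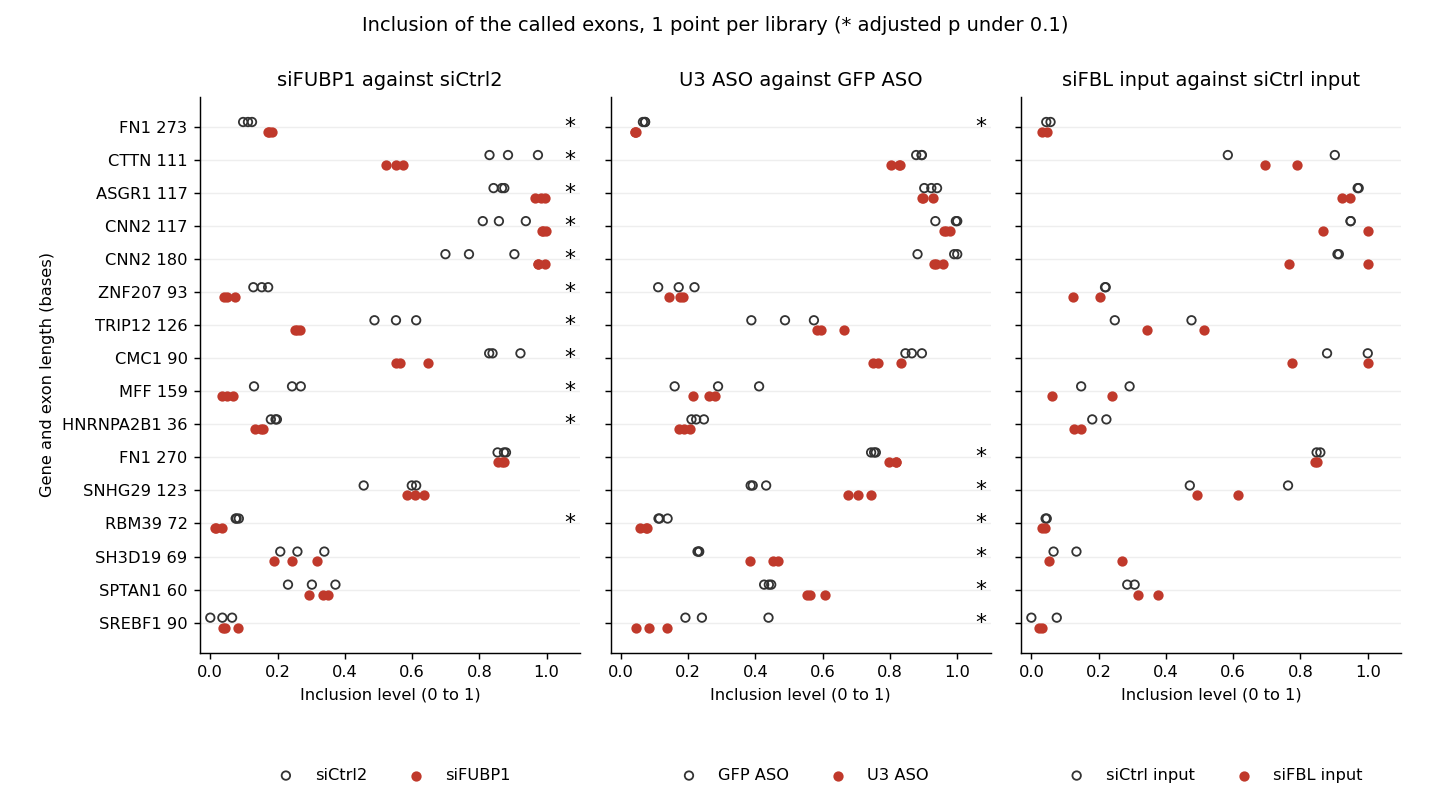
Inclusion level (0 to 1) of each called frame-preserving exon in every library, with gene and exon length in bases, by group in each of the 3 tables, with controls as open and depleted libraries as filled points. An asterisk marks an adjusted p under 0.1. CTTN 111 dropped from a mean of 0.896 to 0.549 with siFUBP1, and the asterisks of FN1 273 in the U3 table and RBM39 72 in the FUBP1 table stand on events whose control level lies outside the rule.

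The U3 ASO changed 6 of 2026 frame-preserving events, 4 upward and 2 downward. Those that rose lay in FN1, SNHG29, SH3D19 and SPTAN1, and those that fell in RBM39 and SREBF1. Of all 30110 tested events, 0.106% were called lower and 0.113% higher (32 and 34 events), and of 2259 frame-shifting events 2 were lower and 13 higher.

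FN1 EDA had the deepest reads of any exon named here, at 36534 per library. It was included at 0.744, 0.753 and 0.758 with the GFP ASO and at 0.797, 0.817 and 0.819 with the U3 ASO, with no overlap (adjusted p = 3.44e-21, quasi-binomial F test). EDB, whose control level of 0.0698 ± 0.00362 put it outside the rule in that table, was at 0.0437 ± 0.00161 with the U3 ASO (SD, n = 3, adjusted p = 1.58e-08, same test). EDA thus rose and EDB fell with the U3 ASO, whereas EDB rose with siFUBP1.

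SNHG29 is a host gene of small nucleolar RNAs with no protein product, so the frame has no meaning for its exon of 123 bases. Inclusion rose from 0.392, 0.432 and 0.386 to 0.743, 0.705 and 0.674, a difference of 0.304 (adjusted p = 2.03e-16, quasi-binomial F test). No other called frame-preserving event of the U3 table changed by as much, and the groups did not overlap.

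The exon of 69 bases in SH3D19, an SH3 adaptor protein, rose from 0.233, 0.228 and 0.232 to 0.453, 0.384 and 0.467 (adjusted p = 0.0486, quasi-binomial F test). SPTAN1 encodes the alpha spectrin of the membrane skeleton in non-erythroid cells, and its exon of 60 bases rose from 0.447, 0.44 and 0.426 to 0.552, 0.606 and 0.563 (adjusted p = 0.0521, quasi-binomial F test). The controls of both were tight, with SDs of 0.00238 and 0.0108, and every U3 ASO library lay above them.

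RBM39 encodes a splicing factor, and its exon of 72 bases is annotated in a transcript that is a target of nonsense-mediated decay, with a stop codon in the frame of the exon before it. It fell from 0.139, 0.115 and 0.112 to 0.0569, 0.0784 and 0.0738 (adjusted p = 0.00443, quasi-binomial F test). The same exon was called lower with siFUBP1, from 0.0795 ± 0.0048 to 0.0221 ± 0.0117 (SD, n = 3, adjusted p = 0.00157, same test), although its control level there was below the rule's limit. A length of 3n bases therefore does not by itself mean that the exon leaves an open frame.

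SREBF1 encodes the sterol regulatory element-binding protein SREBP1, a transcription factor of lipid synthesis. Its exon of 90 bases was at 0.192, 0.241 and 0.439 with the GFP ASO and 0.0847, 0.137 and 0.0437 with the U3 ASO (adjusted p = 0.0791, quasi-binomial F test). The groups did not overlap, but 1 control library stood well above the others. The exon was a member in the U3 table only, through its GFP ASO level. Its mean was 0.0336 ± 0.0325 with siCtrl2 (SD, n = 3) and 0.0377 ± 0.0534 with siCtrl (SD, n = 2). Both lay below the U3 ASO mean of 0.0885 ± 0.0468 (SD, n = 3). Whether the GFP ASO level had a part in the fall was not tested. The calls of SH3D19, SPTAN1, SREBF1 and RBM39 were each lost when single libraries were left out, and all 4 of them without U3 ASO replicate 1, when 2 calls in all were made.

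The events next in order of p in the U3 table did not pass the test and are given as values. Inclusion of the exon of 177 bases in FDPS, an enzyme of the mevalonate pathway, was 0.309, 0.3 and 0.231 with the GFP ASO and 0.39, 0.471 and 0.457 with the U3 ASO (adjusted p = 0.152, quasi-binomial F test). The exon of 267 bases in FGFR1, which codes for the first immunoglobulin-like domain of this growth factor receptor, was at 0.552, 0.571 and 0.553 against 0.401, 0.388 and 0.312 (adjusted p = 0.198, same test). Neither had overlapping groups. TRA2A, a splicing activator, had an exon of 312 bases with 7 stop codons in frame at 0.225 ± 0.0605 and 0.446 ± 0.119, and the exon of 87 bases in PUF60, a poly(U)-binding splicing factor, was at 0.631 ± 0.0448 and 0.414 ± 0.0379 (SD, n = 3).

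With siFBL no frame-preserving event passed the quasi-binomial F test, and neither did any of the 5218 tested events of that table, so that 0% were called lower and 0% higher. At an unadjusted p under 0.05 there were 16 frame-preserving events (9 lower, 7 higher) and 70 events in all, and limma's moderated test on the log2 odds of inclusion called 3 frame-preserving events. That comparison had 2 libraries a group and the fewest junction reads.

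The smallest p belonged to the exon of 45 bases in GNAS, which separates the long and short forms of the stimulatory G protein alpha subunit. Its inclusion was 0.154 and 0.12 with siCtrl and 0.27 and 0.269 with siFBL (unadjusted p = 0.000108, adjusted p = 0.561, quasi-binomial F test across the table). The exon of 63 bases in PLOD2, a lysyl hydroxylase of collagen, was at 0.146 and 0.0329 against 0.498 and 0.387. The exon of 192 bases in MAP4K4, a protein kinase, was at 0.659 and 0.451 against 0.0909 and 0.237. In these exons the groups were apart, while the spread within a group was wide for PLOD2 and MAP4K4.

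Of the other events in the first 10 by p with siFBL, C1orf43 (102 bases, 0.392 ± 0.033 and 0.773 ± 0.147, SD, n = 2) and TNRC6A (177 bases, 0.0982 ± 0.139 and 0.75 ± 0.354, SD, n = 2) were higher by mean. TNRC6A, a protein of microRNA silencing, had 49 junction reads per library, and its siFBL values were 0.5 and 1. The means were lower with siFBL for ENTPD6, BPIFB2, ATP6V0E2, RTCA and IL32, by 0.157 in BPIFB2 to 0.467 in ATP6V0E2. Their adjusted p by the same F test was 0.914 throughout. ATP6V0E2, a subunit of the vacuolar proton pump, had control values of 1 and 0.439, and RTCA, an RNA 3′-phosphate cyclase, of 0 and 0.558, so that control libraries differed from each other by as much as the groups did.

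Events whose libraries did not overlap between groups were more numerous than the calls. With siFUBP1, 97 frame-preserving events lay wholly lower and 66 wholly higher (8.46% and 5.75%), where all tested events had 3.10% lower and 1.96% higher. With the U3 ASO, 84 were lower and 137 higher (4.15% and 6.76%), where all tested events had 3.72% and 2.31%. With siFBL, 59 were lower and 78 higher (11% and 14.5%), where all tested events had 7.63% and 6.19%. The shares are not read against each other, since the limits on level and reads also picked events that vary more. The median absolute change was 0.0986, 0.0784 and 0.126 at frame-preserving events and 0.0288, 0.0197 and 0.0648 at all tested events. With 2 libraries a group, as for siFBL, groups lie apart by chance more often than with 3. When all libraries chose the exons, the counts of lower and higher frame-preserving events became 126 and 59 with siFUBP1, 126 and 138 with the U3 ASO and 82 and 70 with siFBL, so the majority turned from higher to lower for siFBL. By control choice, 74 frame-preserving events were lower and 72 higher with siFUBP1 at an unadjusted p under 0.05 (quasi-binomial F test). With the U3 ASO they were 60 and 131. All tested events split into 424 lower and 259 higher with siFUBP1 and 528 and 582 with the U3 ASO. Control levels alone chose the members in this split, and it was not made for exons chosen by all libraries.

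Frame-shifting exons chosen by the same limits had 52 events lower and 72 higher without overlap in the siFUBP1 comparison (4.48% and 6.2%), 74 and 144 with the U3 ASO (3.28% and 6.37%), and 41 and 64 with siFBL (8.93% and 13.9%). When all libraries chose them, the frame-shifting counts were 90 lower and 54 higher, 147 and 171, and 66 and 58, so their majority turned for siFUBP1 and siFBL. No test was made of the difference between both sets, since control levels chose the members of each.

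Mean inclusion over the frame-preserving events was 0.6515, 0.6387 and 0.6479 in the siCtrl2 libraries and 0.6554, 0.6612 and 0.6513 in the siFUBP1 libraries, groups that overlapped. It was 0.6192, 0.6234 and 0.6261 with the GFP ASO and 0.6429, 0.655 and 0.6453 with the U3 ASO, and it was 0.6374 and 0.6286 with siCtrl and 0.6854 and 0.6613 with siFBL. The U3 ASO and siFBL libraries were all above their controls, by 0.0248 and 0.0404 on average. These means depend on the choice of the exons, because events were taken for intermediate levels in the control libraries alone and not in the depleted ones.

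When the same limits were set on the inclusion pooled over all libraries, the differences became -0.0254 for siFUBP1, 0.00122 for the U3 ASO and -0.0244 for siFBL. When they were set on the depleted libraries, they were -0.0551, -0.0184 and -0.0837. The sign of the mean change thus followed which libraries chose the exons in every comparison, and no direction of the mean is reported for frame-preserving exons. Frame-shifting exons moved in the same way, from 0.0298, 0.0333 and 0.0619 by control choice to -0.0496, -0.0283 and -0.0864 by depleted choice. With siFUBP1 the frame-shifting mean change lay above the frame-preserving one under each choice, including -0.0133 against -0.0254 when all libraries chose. By depleted choice these were -0.0496 and -0.0551, with SDs of the depleted library means of 0.0123 and 0.011. With the U3 ASO and siFBL the order turned by depleted choice, at -0.0283 against -0.0184 and -0.0864 against -0.0837. The differences between both kinds of exon were not tested.

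**Figure D2:**
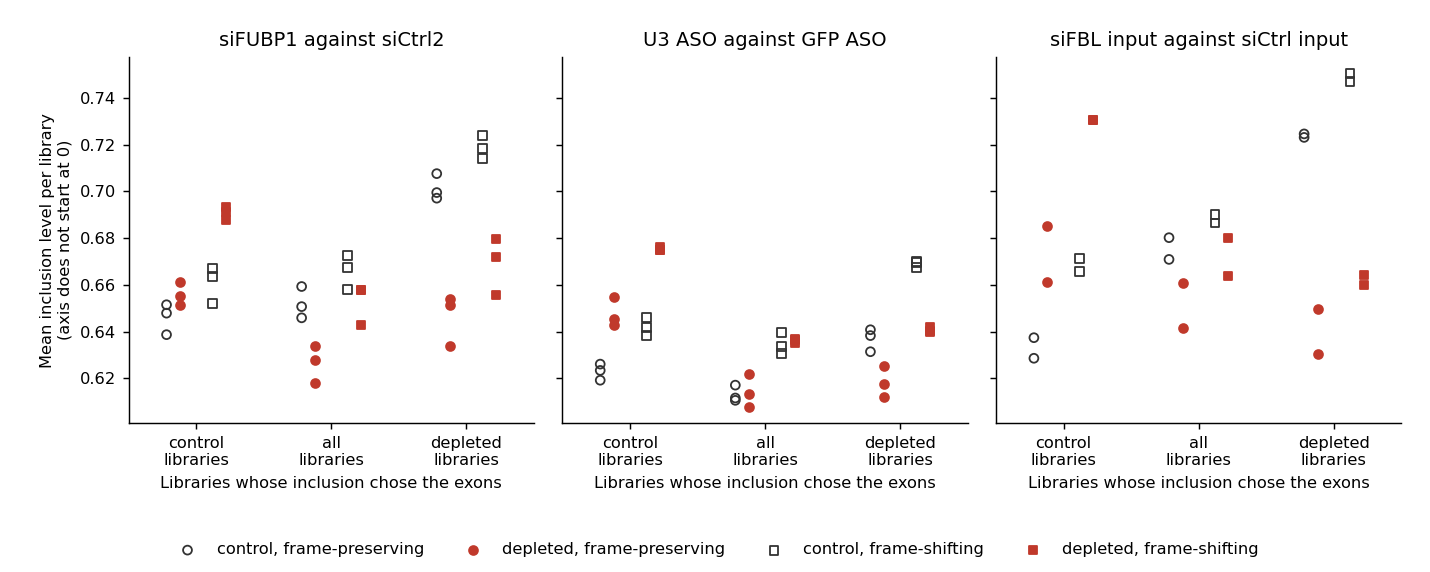
Mean inclusion level over frame-preserving (circles) and frame-shifting events (squares), 1 point per library, open for control and filled for depleted libraries, when the 0.1 to 0.9 limits were set on control, all or depleted libraries, for each comparison. The vertical axis does not start at 0, and with the U3 ASO the frame-preserving difference went from 0.0248 by control choice to -0.0184 by depleted choice.

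The exons were separated by a feature that the rule did not use, the run TTTTT in the last 50 intron bases before the exon (transcribed strand only). It stood before 31.99%, 33.39% and 29.33% of the frame-preserving exons in the FUBP1, U3 and FBL tables and before 34.71%, 33.18% and 28.93% of the exons of all tested events. With siFUBP1, mean inclusion of the 372 frame-preserving events with the run was 0.645, 0.648 and 0.659 in the control and 0.64, 0.638 and 0.63 in the depleted libraries. In the 772 events without it the mean was 0.654, 0.634 and 0.642 against 0.663, 0.672 and 0.661. The first group fell by 0.0146 and the second rose by 0.0218, neither with overlap between libraries, and 38 events with the run lay wholly lower and 13 wholly higher, against 59 and 53 without it.

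The gap between exons with and without the run kept its direction when all libraries chose the exons, at -0.0498 (393 events) and -0.012 (720 events, libraries overlapping). The counts of wholly lower and higher events were then 52 and 12 with the run and 74 and 47 without it. Frame-shifting exons showed -0.0047 with the run (libraries overlapping) and 0.0456 without it under control choice. Their wholly lower and higher counts were 22 and 14 with it and 30 and 58 without it. When all libraries chose, they showed -0.0515 with the run and 0.00677 without it (libraries overlapping). The counts were then 43 and 13, and 47 and 41. The gap with siFUBP1 was thus not particular to frame-preserving exons. Counts by this run were not made over all tested events. With the U3 ASO, frame-preserving events with the run changed by 0.0156 and those without by 0.0295, and with siFBL by 0.0561 and 0.0336, which is the opposite order. These are descriptions of class means and were not tested.

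**Figure D3:**
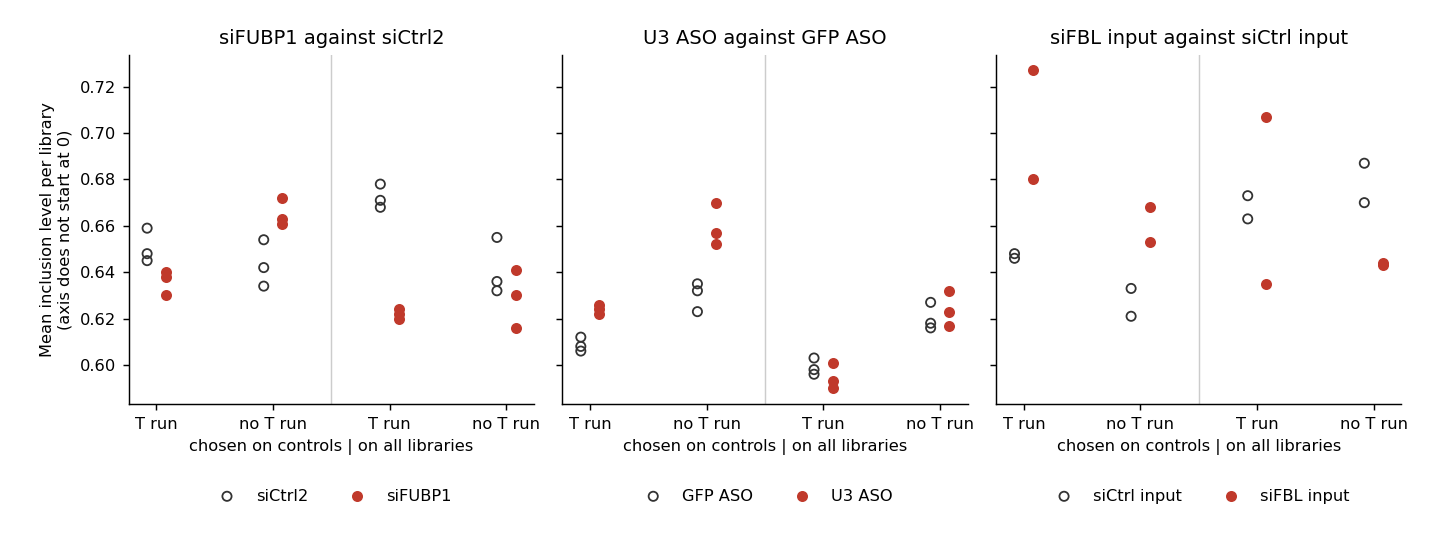
Mean inclusion level of frame-preserving events with and without TTTTT in the last 50 intron bases, 1 point per library, for exons chosen on control (left of each panel) or all libraries (right), on an axis that does not start at 0. By control choice with siFUBP1 the mean of events with the run went from 0.651 to 0.636 and of those without it from 0.644 to 0.665.

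Length separated the siFUBP1 changes as well. Events of exons up to 60 bases long changed by -0.0225 (184 events), those of 61 to 150 bases by 0.00726 (662 events, libraries overlapping) and those over 150 bases by 0.036 (298 events). When all libraries chose the exons the order was the same, with -0.0385, -0.0276 and -0.0119 (the last with overlap). With the U3 ASO the same classes changed by 0.0114 (libraries overlapping), 0.0232 and 0.0365, and with siFBL by -0.00669 (libraries overlapping), 0.0428 and 0.0675. When all libraries chose the exons these became -0.00808, -1.56e-05 and 0.00961 with the U3 ASO, all with overlap, and -0.0268, -0.023 and -0.0261 with siFBL, where the order by length and the positive changes were gone. The shortest exons had the lowest mean control inclusion in each table, for example 0.575 against 0.679 for the longest with siCtrl2, so length and control level moved together and their parts were not told apart. The order by length with siFUBP1 was not particular to frame-preserving exons. Frame-shifting exons of these classes changed by -0.00228 (libraries overlapping), 0.0324 and 0.0348 by control choice. When all libraries chose, they changed by -0.0367, -0.0108 and -0.0105, with overlap in both longer classes.

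The motif TGCATG, which the RBFOX splicing factors bind, stood within 50 bases on either side of 3.952%, 4.221% and 4.19% of the frame-preserving exons (transcribed strand), and of 2.982%, 2.873% and 3.241% of all tested exons. FN1 EDB and SPTAN1 were the called exons with it. The following intron began with GT after 98.81% of the frame-preserving exons in the FUBP1 table, and the intron before ended in AG in 100%.

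In the annotation, 82.44%, 75.38% and 86.67% of the frame-preserving exons of the FUBP1, U3 and FBL tables matched a coding exon, against 60.24%, 55.3% and 63.45% of the frame-shifting exons and 80.39%, 79.89% and 78.34% of all tested exons. Length divisible by 3 went with coding annotation, a comparison between sets that the rule fixed on length. Of all tested exons of a length divisible by 3, 85.61%, 83.73% and 85.57% matched a coding exon. Where the frame of the exon before was known, 61 of 944 (6.462%), 148 of 1492 (9.92%) and 18 of 465 (3.871%) frame-preserving exons held a stop codon in frame, against 20.38%, 27.04% and 16.39% of frame-shifting exons. Among all tested exons of a length divisible by 3 the shares with a stop were 6.764%, 8.541% and 5.88%. The low share thus went with length and was not particular to the alternative exons. Of the 68 frame-preserving events with such a stop in the siFUBP1 comparison, 11 lay wholly lower and 2 wholly higher, against 71 and 60 of the 920 without one. With the U3 ASO the counts were 5 and 11 of 175 with a stop and 58 and 108 of 1443 without, and with siFBL 0 and 4 of 19 and 48 and 69 of 452. When all libraries chose the exons, events with a stop gave 8 lower and 3 higher of 71, 5 and 21 of 205, and 0 and 4 of 26. Events without a stop then gave 98 and 52 of 875, 91 and 96 of 1360, and 71 and 61 of 468. The share of wholly lower events with siFUBP1 was then about the same with and without a stop. By control choice, frame-shifting events with a stop gave 11 and 5 of 156, 12 and 33 of 395, and 13 and 8 of 51. When all libraries chose, they gave 17 and 9 of 163, 17 and 50 of 396, and 12 and 9 of 55. With the U3 ASO, the higher majority among events with a stop was thus not particular to frame-preserving exons. Counts by stop codon were not made over all tested events, and these counts were not tested.

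**Figure D4:**
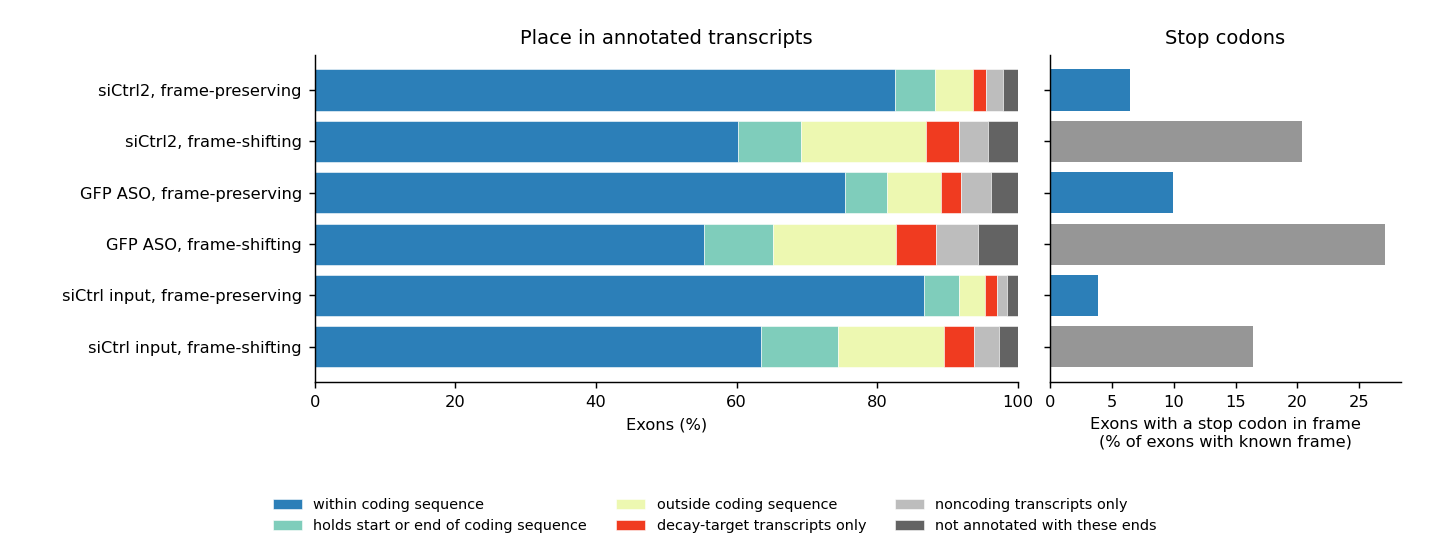
Left, place of frame-preserving and frame-shifting exons in annotated transcripts as percent of exons, and right, percent of exons of known frame with a stop codon, for the tables named by their control group. Frame-preserving exons with a stop made up 3.871% to 9.92%, below the frame-shifting exons of the same table.

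Median length was 111, 111 and 108 bases, and exons ran from 33 to 3885, 6108 and 3381 bases. Up to 60 bases long were 16.36%, 15.24% and 16.76% of frame-preserving exons, against 9.826%, 8.85% and 8.744% of frame-shifting exons. About as many began on a codon boundary, 47.67%, 47.65% and 49.03% of those with a known frame, as began within a codon. Several genes held more than 1 such exon, 132 for FUBP1, 262 for U3 and 53 for FBL. The most in any gene was 6, in MBD1, a methyl-CpG-binding protein, in the U3 table. Control inclusion was over 0.7 in 54.2%, 49.1% and 53.1% of events and between 0.5 and 0.7 in a further 16.9%, 18.3% and 16.2%, so most were included in the majority of transcripts.

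At the limits of the rule in the FUBP1 table, NADK2 was just inside 0.1 with a control inclusion of 0.10039 and PATZ1 just outside with 0.099711, and BCAR1 at 0.9 was kept while FAM118B at 0.90001 was not. AKAP13 was kept with 20 reads per library and EZH1 was not with 19.833, and an exon of 33 bases in CADM1 was kept while one of 30 in ACLY was not. In the U3 table the pairs were PARPBP at 0.10031 and LSR at 0.099583, FAM98C at 0.9 and NEURL4 at 0.90009, CDCA7L with 20 reads and ADA with 19.833, and ACBD5 with 33 bases and ACLY with 30. In the FBL table they were PLOD2 at 0.10093 and MIA3 at 0.099947, VSIG10 at 0.9 and PROC at 0.90024, ACD with 20 reads and ADAM9 with 19.75, and CADM1 and ACLY as before.

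Many exons were frame-preserving members in more than 1 table. The FUBP1 and U3 tables shared 735 exons (67.6% of the first and 40.3% of the second), those of FUBP1 and FBL shared 322 (29.6% and 61.3%), and those of U3 and FBL shared 336 (18.4% and 64%). Across shared events the control levels of the separate experiments correlated with Pearson's r of 0.819 (760 events), 0.777 (319 events) and 0.779 (335 events). The changes had r of 0.0159, -0.0782 and 0.0516 over the same events. The points share the cell line and the library kit, and many rest on few reads, so the correlations are given as description.

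There were 288 events of 286 exons and 251 genes that were members in all 3 tables. Of these 31 were lower by mean in all 3 comparisons and 35 higher in all 3. Between pairs of tables, 365 of 760 (FUBP1 and U3), 157 of 319 (FUBP1 and FBL) and 177 of 335 (U3 and FBL) shared events changed in the same direction. These counts are not read as agreement between the depletions. The control means of a member differed between tables by a median of 0.155, with 90 events within 0.1 and 36 over 0.3 apart. The libraries lay wholly to one side in every comparison for HNRNPA2B1 (lower), USF2 (higher) and AUH (higher). USF2, a transcription factor, changed by 0.105, 0.0772 and 0.247, and AUH, a mitochondrial hydratase of leucine breakdown that also binds AU-rich RNA, by 0.0848, 0.158 and 0.487 with siFUBP1, the U3 ASO and siFBL. USF2 and AUH were picked after their values were seen, and neither was called in any table.

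**Figure D5:**
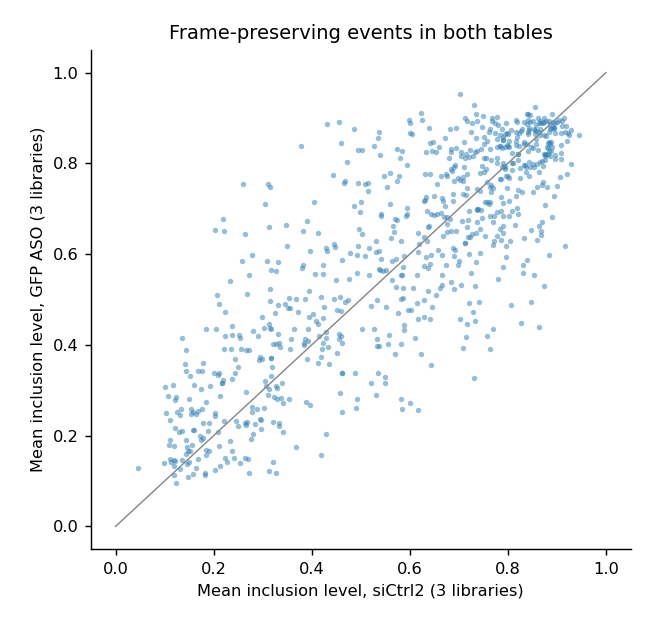
Mean control inclusion level of the 760 frame-preserving events shared by the FUBP1 (siCtrl2, horizontal) and U3 tables (GFP ASO, vertical), 1 point per event, with a line for equal levels. Points follow the line with wide scatter (Pearson's r of 0.819).

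HNRNPA2B1 was at 0.19 ± 0.0096, 0.227 ± 0.0186 (SD, n = 3) and 0.202 ± 0.0291 (SD, n = 2) in the 3 control groups and at 0.148 ± 0.0132, 0.189 ± 0.0161 and 0.137 ± 0.0135 in the siFUBP1, U3 ASO and siFBL groups. Only the first passed the quasi-binomial F test, with adjusted p of 0.0918, 0.331 and 0.914. TRIP12, lower with siFUBP1, was higher by mean with the U3 ASO, at 0.483 ± 0.0927 and 0.615 ± 0.0433 (SD, n = 3), but did not pass there (adjusted p = 0.808, same test). CTTN was at 0.889 ± 0.00989 and 0.821 ± 0.0147 with the GFP and U3 ASO (SD, n = 3, adjusted p = 0.857, same test). ZNF207 showed 0.167 ± 0.0543 and 0.168 ± 0.0231 there, and FN1 EDA 0.853 ± 0.00797 and 0.846 ± 0.00483 with siCtrl and siFBL (SD, n = 2).

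Among the shared exons with the most reads was that of GNAS (45 bases), which had a pair of events with different neighbouring junctions. The one with more reads on average over the tables was at 0.542 ± 0.0175 and 0.499 ± 0.00887 with siCtrl2 and siFUBP1, at 0.685 ± 0.0133 and 0.73 ± 0.029 with the GFP and U3 ASO (SD, n = 3), and at 0.548 ± 0.00592 and 0.654 ± 0.0379 with siCtrl and siFBL (SD, n = 2). Its groups did not overlap in any comparison, lower in the first and higher in the others. The other event, which had more reads in the FUBP1 and FBL tables, differed by -0.000176 with siFUBP1 and -0.00459 with the U3 ASO, both with overlap, and by 0.132 with siFBL. The Kunitz inhibitor exon of APLP2 (168 bases), a relative of the amyloid precursor protein, overlapped between groups with siFUBP1 and the U3 ASO and was at 0.264 ± 0.017 and 0.344 ± 0.0037 with siCtrl and siFBL (SD, n = 2).

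SPATS2L (207 bases) was at 0.455 ± 0.00686 and 0.378 ± 0.0115 with siCtrl2 and siFUBP1 without overlap, at 0.413 ± 0.0537 and 0.494 ± 0.0334 with the GFP and U3 ASO (SD, n = 3), and at 0.751 ± 0.0797 in the siCtrl libraries (SD, n = 2). RALY (48 bases) and PCBP2 (93 bases) encode RNA-binding proteins. RALY was at 0.792 ± 0.00894 and 0.774 ± 0.0115 with the GFP and U3 ASO (SD, n = 3), lower without overlap, and PCBP2 at 0.599 ± 0.0123 and 0.695 ± 0.0377 with siCtrl and siFBL (SD, n = 2). SERPINA5 (96 bases), the protein C inhibitor, overlapped between groups in all 3 comparisons. MAP4K4 was at 0.423 ± 0.0298 and 0.518 ± 0.0617 with siCtrl2 and siFUBP1 (SD, n = 3), overlapping, against the drop by mean with siFBL given above.

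Gene lists chosen with earlier results known are described by counts, beside 10 calls among 1147 frame-preserving events with siFUBP1 and 6 among 2026 with the U3 ASO. Of 52 actin and cytoskeleton genes 19 held 37 members with siFUBP1, of which 1 was called lower (CTTN) and 2 higher (the CNN2 events that share their skipping reads), and the median change of inclusion was -0.0908 against 0.0277 over all frame-preserving events. At an unadjusted p under 0.05 the 37 members held 5 lower and 4 higher events. Without overlap between libraries, 5 were lower and 2 higher, beside 8.46% and 5.75% of all frame-preserving events. With the U3 ASO, 44 members in 22 of these genes included 1 call, SPTAN1, and with siFBL there was none among 16. Adhesion and matrix genes had 12 members in both the siFUBP1 and the U3 ASO comparison with 1 called higher in each, the FN1 exons, and receptor and signalling genes 37 and 49 with 1 call, ASGR1 with siFUBP1.

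RNA binding and splicing genes had 22 members with siFUBP1 and 28 with the U3 ASO, 1 called lower in each (HNRNPA2B1 and RBM39). Transcription and chromatin genes had 30 and 46, with ZNF207 the only call. Liver metabolism and secreted protein genes had 4 and 10, with SREBF1 the only call, while 175 events tested in the FUBP1 table lay in those 69 genes. Membrane traffic genes had 29 and 30 members and 0 calls by the quasi-binomial F test, with 4 lower and 2 higher at an unadjusted p under 0.05 with siFUBP1 and 2 lower and 1 higher with the U3 ASO. Median changes of inclusion in the lists other than those of actin and liver genes lay between 0.000197 and 0.0545 with siFUBP1, and that of the 4 liver events was -0.356. These 4 events lay in 3 genes, with 0 at an unadjusted p under 0.05 and 0 without overlap between libraries.

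Junction reads at the frame-preserving events made up 2.56 to 2.6% of all junction reads in the GFP ASO libraries and 3.08 to 3.14% in the U3 ASO libraries. Without FN1 the shares were 2.32 to 2.33% and 2.76 to 2.79%, and for frame-shifting events 1.91 to 1.92% and 2.29 to 2.31%. In the FUBP1 table the shares at frame-preserving events were 3.7 to 3.86% with siCtrl2 and 3.87 to 3.95% with siFUBP1, and in the FBL table they were 5.98 to 6% and 5.95 to 6%. More of the reads thus lay at these events in every U3 ASO library than in any GFP ASO library, at both kinds of exon. Whether this had a part in the U3 ASO results was not tested.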

How the data were processed

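RNA-seq of HepG2 cells was analysed in 16 of 20 samples, and the FUBP1 immunoprecipitation libraries were not used here. Poly(A) RNA or, for the FBL comparison, RNA of the immunoprecipitation input was made into libraries with a stranded total RNA kit. Per the study's methods the authors trimmed adapters with Cutadapt, aligned reads to hg38 with HISAT2 and counted skipped-exon events with rMATS; versions and the rMATS annotation are not given in the sources used here. The deposited tables hold, per event and library, counts of reads across inclusion and skipping junctions and the effective lengths of both forms. They also hold the authors' p-values, adjusted p-values and inclusion differences, and 6 columns of inclusion levels, none of which were used. A table of immunoprecipitation fold changes of the authors was not used either.

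The members, gene lists and tests were chosen with earlier results of these data known. Inclusion was the length-scaled inclusion reads over inclusion plus skipping reads. Events with a mean of 10 or more reads per library (16213, 30110 and 5218) were tested in R 4.3.3 with a quasi-binomial F test, whose dispersion was moderated across events with limma 3.58.1 and held at 1 or more, with Benjamini-Hochberg adjustment over all tested events. The test was also run on simulated counts, whose outcome is not given here. They were drawn at a single dispersion per comparison, taken from the test's own fit, and so lacked the spread of dispersion between real events. Exons were matched to the GENCODE 44 annotation and the hg38 sequence with pysam 0.24.0 in Python 3.11.15. Named events were those called, then those of smallest p up to 10 in a table, the shared exons with the most reads, list examples, and events at the limits of the rule, 1 event per exon. The sequence of SREBF1 is not printed. No molecular identifiers were stated, so reads are not counted molecules. The alternatives tried were limma on the log2 odds, another prior trend, other read and level limits, 1 event per exon, leaving out each library, and other libraries to choose the exons.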

Additional observations from a re-analysis of the deposited data

How the results depend on the processing

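No paired analysis was possible because the libraries stand in the columns as lists without replicate numbers. Frame-preserving calls at an adjusted p under 0.1 rose with limma's moderated test on the log2 odds from 10 to 22 for siFUBP1 (8 shared), from 6 to 29 for the U3 ASO (6 shared) and from 0 to 3 for siFBL (FN1 EDA, GNAS and TNRC6A). Leaving out each library gave 6 to 12, 2 to 5 and 0 calls. The low of 6 came without siCtrl2 replicate 2 (losing CMC1, HNRNPA2B1, MFF and TRIP12) and the low of 2 without U3 ASO replicate 1. Without siFUBP1 replicate 2 CMC1, HNRNPA2B1 and MFF were lost (7 calls), and each other siCtrl2 or siFUBP1 library left out cost 1 or 2 of these 3. With the U3 ASO, RBM39 and SH3D19 were lost without GFP ASO replicate 1, SPTAN1 and SREBF1 without U3 ASO replicate 2, and SH3D19, SPTAN1 and SREBF1 without GFP ASO replicate 2 (3 calls), GFP ASO replicate 3 or U3 ASO replicate 3 (3 calls). With no filter on reads HNRNPA2B1 was lost. FN1 EDB, CTTN, ASGR1, both CNN2 events and ZNF207 with siFUBP1 and FN1 EDA and SNHG29 with the U3 ASO were called under all 11 alternatives that repeated the test. Choosing the exons by other libraries did not repeat the test and is not among the 11.

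The mean change of inclusion moved with the choice of exons. For siFUBP1 it went from 0.00996 to 0.00238 with at least 50 reads, -0.0254 when all libraries chose the exons and -0.0551 when the depleted ones did, with 0.00628 to 0.0127 when single libraries were left out. For the U3 ASO, 0.0248 became 0.03 with limits of 0.2 to 0.8, 0.00122 by all and -0.0184 by depleted libraries (0.0212 to 0.0272 with single libraries left out). For siFBL, 0.0404 became 0.0181 with 50 reads, -0.0244 by all and -0.0837 by depleted libraries (0.0283 to 0.0524). The choices by all and by depleted libraries were added after seeing the data, and with them 9, 9 and 0 and then 7, 9 and 0 frame-preserving events were called. The siFBL comparison had both the fewest reads and the fewest libraries, and their parts in its count of 0 were not told apart.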
